A study of Mus musculus with 72 samples.

Results

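The comparison described here set the blood of mice killed 1 day after 0.25 Gy of neutrons, the lowest neutron dose of the series, against that of unirradiated mice of the same day. Its members were chosen by their labels, as the 6 arrays of 0.25 Gy neutrons and the 5 control arrays of day 1, 11 of 72 arrays in all. All animals were young adult male C57BL/6 mice, and each array held the blood RNA of 1 mouse. The irradiated animals rotated in holders around a neutron source whose spectrum was built to resemble that of an improvised nuclear device and which also emits some γ-rays, and the controls were sham-irradiated. Blood was drawn by cardiac puncture into PAXgene lysis solution, so that the RNA of all blood cells, and of anything else in the needle's path, was measured together on 1-colour Agilent mouse arrays. Beside this comparison stand the 0.25 Gy neutron mice and controls of day 3 (6 and 5) and of day 7 (5 and 6), and the 1 Gy neutron (6), 1 Gy x-ray (6) and 4 Gy x-ray (5) mice of day 1.

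Ionizing radiation breaks DNA, and in blood cells the damage is relayed to the transcription factor p53, which switches on genes of cell cycle arrest (Cdkn1a), of feedback on p53 itself (Ccng1) and of cell death (Bbc3, Bax). Lymphocytes, and B cells above all, are the blood cells that die most readily after irradiation, so B cell transcripts and the MHC class II genes that B cells carry are usual readouts of exposure. Neutrons deposit their energy along dense tracks, which makes a given dose more damaging than the same dose of x-rays for most endpoints.

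In the values below, a level is a log2 intensity with the median of the detected probes of each array set to 0, and a change is the mean level of the irradiated mice minus that of the controls. A gene was called at p below 0.001 together with a false discovery rate (FDR) below 0.05. Of 10863 genes tested, 1 was called, which is 0.00921%. It was Ap2b1, which fell. At an unadjusted p below 0.05, 1016 genes were higher (9.35%) and 825 lower (7.59%), and at p below 0.001 there were 15 higher and 52 lower. The median change over all genes was 0.12, and −0.05 with the normexp background correction. Every irradiated mouse lay above every control for 99 genes (0.911%) and below every control for 214 (1.97%).

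**Figure D1:**
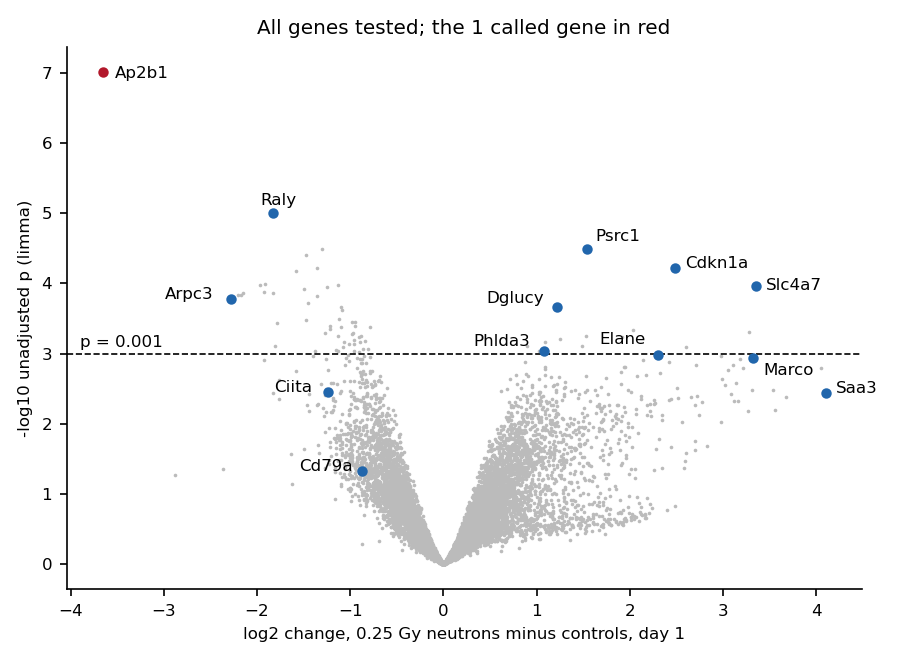
Each point is 1 of the 10863 genes tested, with its log2 change (0.25 Gy neutrons minus controls, day 1) on the x axis and the −log10 of its unadjusted limma p on the y axis, with a dashed line at the limit of 0.001. Ap2b1 (red, −3.65) lies apart from all other genes, and the named genes of the text are in blue.

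The arrays were comparable in quality, with 54.8% to 63.4% of spots well above background. Ptprc, the pan-leukocyte marker CD45, the haemoglobin gene Hba-a1, Cd79a, Cd3e, S100a8, Pf4 and Slc4a1 were well above background on all 11 arrays, as whole blood should give. Irradiated replicate 5 stood apart. Its profile correlated with the others at 0.811 to 0.917, against 0.928 to 0.988 among the other 10 arrays, and its Ptprc level was 0.71, against 2.34 to 3.10 in the other mice. The 11 arrays lay on 3 slides that share a scan date. Slide A held controls 1 to 3, slide B controls 4 and 5 with irradiated replicates 1 and 2, and slide C irradiated replicates 3 to 6, so that a fit with slide as a block rests on slide B alone. Without irradiated replicate 5, 27 genes were called (0.249%), and 1298 were higher (11.9%) and 994 lower (9.15%) at p below 0.05. Without irradiated replicate 3, 34 were called (0.313%), and without control 4 there were 8. With slide as a block, 634 were higher (5.84%) and 209 lower (1.92%) at p below 0.05, and the 2 genes called did not include Ap2b1.

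The deposit holds these arrays both as scanner files and as columns of a table of processed values, and these do not always carry the same label. Set against all 72 scanner files by correlation over probes, 12 of the 72 columns followed the array of their own sample, 51 an array of their own group and 21 an array of another group. Of the 11 mice compared here 10 columns followed their own array. The column of irradiated replicate 6 followed day 3 control 2 instead, and the array of replicate 6 was followed by a column of 1 Gy neutrons at day 1. Which of the labels is right was not settled, and the scanner files were used throughout. Without irradiated replicate 6 Ap2b1 was again the 1 gene called (−3.61, adjusted p = 0.00599), Cdkn1a was at 2.30 and Psrc1 at 1.43 (both with an adjusted p of 0.141), and the B cell and tissue macrophage medians were −0.999 and 2.53. In the groups compared further on, columns that followed another group were all 5 of the day 3 controls and 1 or 2 in each other group, so that comparisons with those groups rest on the labels of the scanner files.

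Ap2b1 encodes the β2 subunit of AP-2, the adaptor that links cargo at the plasma membrane to clathrin during endocytosis. It was read by a single probe at chromosome 11, positions 83217993 to 83218052 in mm9, within the transcript NM_001035854 as the array files annotate it. Its level was 0.09, −0.20, −0.36, −1.65 and −0.37 in controls 1 to 5. In the irradiated mice the lowest level was −4.56, the median −4.28 and the highest −3.15. The groups did not overlap, and the irradiated mouse nearest to the controls was replicate 5. Ap2b1 fell by 3.65 on the log2 scale (SE 0.34), a 12.6-fold decrease, at an adjusted p of 0.00105. In raw terms the spot's intensity was 212 to 576 in the controls and 27.5 to 42.1 in the irradiated mice, where it was well above background on 5 of 6 arrays.

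The drop was also present inside slide B. There the 2 irradiated mice lay 3.36 below the 2 controls, and with slide as a block the change was −3.36 (SE 0.52, adjusted p = 0.0804), which did not pass the FDR limit. Ap2b1 was called in each of the 11 fits that left out 1 mouse. With the normexp background correction it was not, at −2.03 (adjusted p = 0.248). It was not called when all groups of day 1 were fitted together (−3.65, SE 0.86, adjusted p = 0.0682), where the spread of the other irradiated groups enters.

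That spread is visible in the other mice of the series. After 1 Gy of neutrons at day 1, Ap2b1 was at −5.46, −6.63 and −5.02 in replicates 1 to 3 and at −0.68, −0.58 and −0.48 in replicates 4 to 6, for a change of −2.64 (SE 1.13, adjusted p = 0.0705). Single mice of other groups also had low levels: −3.73 in 1 Gy x-ray replicate 5 of day 1, −4.80 in 0.25 Gy neutron replicate 5 of day 3 and −5.19 in 4 Gy x-ray replicate 6 of day 7. Low levels occurred in unirradiated mice too, since day 7 controls 5 and 6, which shared a slide, were at −3.35 and −3.13. These 2 were near the highest of the 0.25 Gy mice of day 1 (−3.15). Low Ap2b1 was thus neither limited to irradiated mice nor found in every irradiated group. What sets apart the mice with a low level was not tested.

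**Figure D2:**
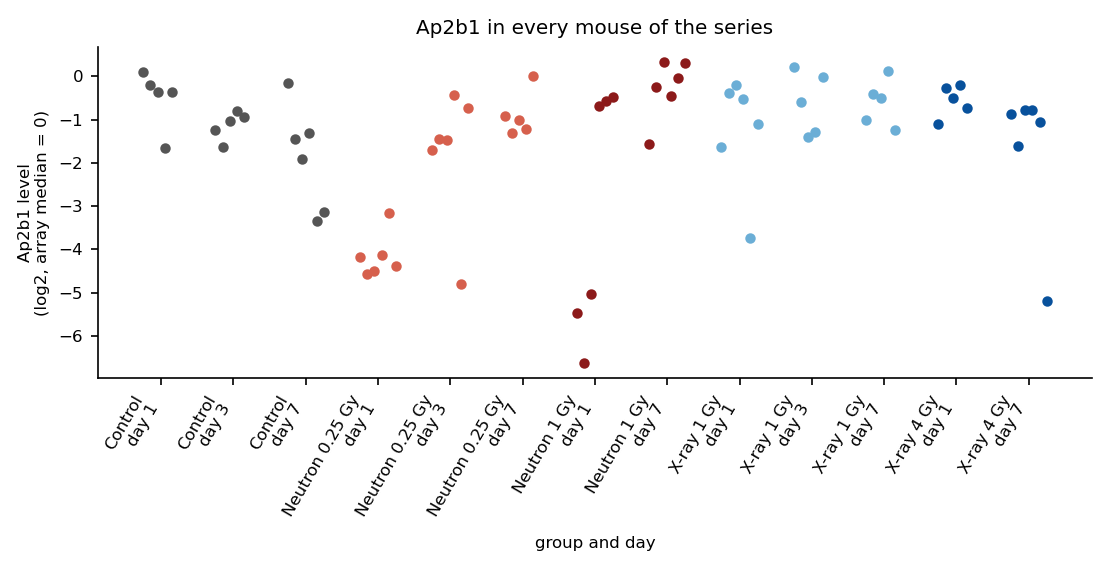
Ap2b1 level (log2, array median at 0) in each of the 72 mice, 1 point a mouse, by exposure and day on the x axis. All 6 mice of 0.25 Gy neutrons at day 1 lie between −4.56 and −3.15, 3 of the 6 mice of 1 Gy neutrons at day 1 lie lower still (−6.63 to −5.02), and low mice occur in other groups, 2 day 7 controls among them.

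Over the 61 arrays outside the comparison, the 10 genes whose levels followed Ap2b1 most closely were Ccdc71, Arpc3, Prpf19, Tmed9, Kdelr1, Psap, N6amt1, Dus4l, Kdm4a and Raly, with Pearson correlations of 0.73 to 0.85. The likeness was looked for after the Ap2b1 result was seen, and it is a description. By rank correlation 3 of these 10 were again among the first 10. The products of these genes work in different places. Arpc3 is a subunit of the actin-branching Arp2/3 complex, Tmed9 and Kdelr1 sort cargo between the endoplasmic reticulum and the Golgi, Psap is the precursor of the lysosomal saposins, Prpf19 and Raly act on pre-mRNA, and Kdm4a removes histone methyl groups.

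In the mice of this comparison all 10 genes were lower at an unadjusted p below 0.05, where 7.59% of all genes were. Their median change was −1.63 and for 4 of them every irradiated mouse lay below every control, as for 1.97% of all genes. None was called, with adjusted p between 0.0543 and 0.194. Raly was at 1.96, 2.49, 1.68, 1.08 and 1.99 in the controls and had a lowest, median and highest level of −0.44, 0.11 and 0.33 in the irradiated mice, a difference of −1.83 (SE 0.26, adjusted p = 0.0543). Arpc3 was between 5.06 and 5.81 in the controls and between 1.38 and 4.09 in the irradiated mice, a difference of −2.28 (SE 0.43, adjusted p = 0.0854). With slide as a block all 10 kept a lower value and 9 were at p below 0.05, where 1.92% of all genes were lower. With spike-in centring Kdelr1, at −1.35, was read at 0.004. That centring shifts every gene of the comparison alike (Ap2b1 went from −3.655 to −3.628). The 0.004 thus belongs to another probe of Kdelr1, taken when the filters and the probe choice were redone. Among the other 51 genes lower at p below 0.001, 16 had a correlation with Ap2b1 above 0.5, as did 37 of 10832 genes in all. None of the 15 genes higher at p below 0.001 did.

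Other members of the clathrin adaptor and coat list differed little. Of 19 tested, Ap2b1 was the 1 called, and the median of the list was 0.06 (−0.07 with the 75th percentile). Aak1, the kinase that phosphorylates AP-2, lay below all controls in every irradiated mouse, with a difference of −0.63 (adjusted p = 0.223), and Ap1s1, a subunit of AP-1, was higher by 0.50 (adjusted p = 0.243).

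Several p53 target genes of arrest and feedback were higher in the irradiated mice, none by the call. Of 11 tested, 5 were higher and 1 lower at p below 0.05, where 9.35% and 7.59% of all genes were, and the median was 0.64 (0.04 with the normexp background correction and 0.19 with spike-in centring). Spike-in centring shifts every gene of the comparison alike (Ap2b1 went from −3.655 to −3.628). Its median of 0.19 thus reflects a changed set of tested genes or probes, since the filters were redone. Cdkn1a, which encodes the cyclin-dependent kinase inhibitor p21, was at −4.20, −2.91, −3.87, −2.87 and −3.74 in the controls. Its lowest, median and highest levels in the irradiated mice were −1.81, −1.41 and 0.26. The probe, at chromosome 17, positions 29237377 to 29237436, was well above background in all irradiated mice but in only 3 of 5 controls, so that the control mean is partly a background level. The groups did not overlap, with a difference of 2.48 (SE 0.42) at an adjusted p of 0.0817.

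Psrc1, a p53-responsive gene of spindle dynamics, was at −4.10, −3.79, −4.22, −4.15 and −4.33 in the controls and ran from −3.45 through a median of −2.50 to −2.02 in the irradiated mice. These groups were separate as well, by 1.54 (SE 0.25, adjusted p = 0.0817). The control levels of Psrc1 were as low as those of Ap2b1 in the irradiated mice (−4.56 to −3.15). The part of background in the control mean was not tested. Phlda3, a p53-induced repressor of Akt, was at 0.83, 1.63, 0.83, 1.25 and 0.66 in the controls, with a lowest, median and highest level of 1.59, 2.19 and 2.58 after irradiation. Its groups overlapped at control 2 and irradiated replicate 5, and the difference was 1.08 (SE 0.25, adjusted p = 0.153). Ccng1, the p53 target cyclin G1, lay between 0.18 and 0.36 in the controls and between 0.87 and 1.40 in 5 irradiated mice. Replicate 5, at 0.21, was within the controls' range, and the mean difference was 0.69 (adjusted p = 0.209). Plk3, a stress-responsive kinase, was higher by 0.64 (adjusted p = 0.241), while Mdm4, an inhibitor of p53, differed by −0.89 (adjusted p = 0.194).

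**Figure D3:**
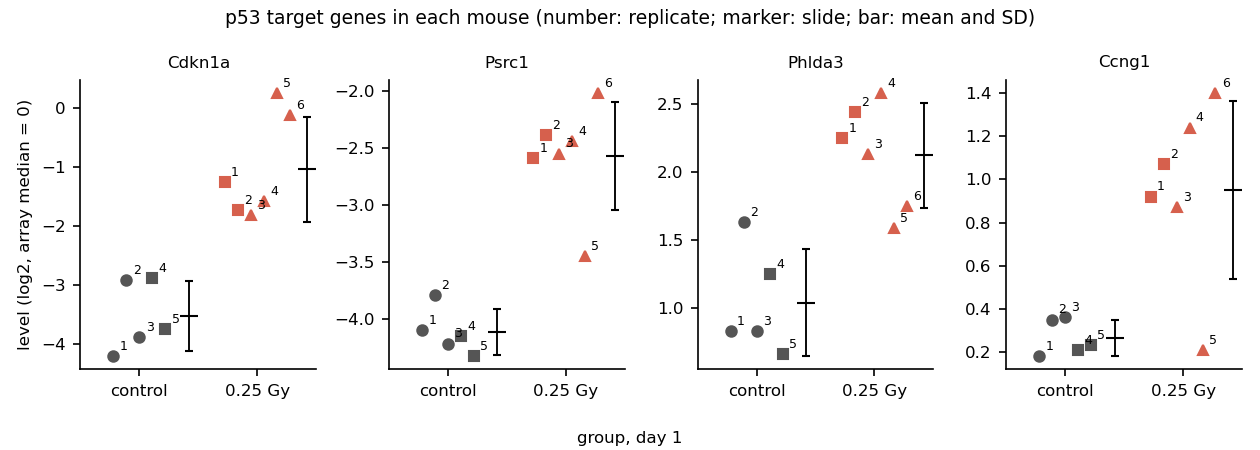
Levels (log2, array median at 0) of Cdkn1a, Psrc1, Phlda3 and Ccng1 in the 5 controls and the 6 mice given 0.25 Gy of neutrons, with replicate numbers beside the points, circles for slide A, squares for slide B, triangles for slide C, and the mean and SD as bars. Cdkn1a and Psrc1 do not overlap between the groups, and replicate 5 lies among the controls for Ccng1.

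Whether these genes were called turned on single mice. Without irradiated replicate 5, Cdkn1a (2.23, adjusted p = 0.0427), Psrc1 (1.72, adjusted p = 0.0018) and Ccng1 (0.83, adjusted p = 0.0457) passed both limits, and without replicate 3, Cdkn1a and Psrc1 did. With slide as a block none of the list was called and 3 were higher at p below 0.05, where 5.84% of all genes were. Cdkn1a then stood at 1.82 and Psrc1 at 1.75. The mean level over the 11 genes was −1.61 to −1.14 in the controls and −1.09 to −0.59 in the irradiated mice, without overlap. Zmat3, another target that passed the filters, was higher by 0.32 (adjusted p = 0.393).

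Of 9 genes listed for the apoptosis branch of the p53 response, 2 were higher and 1 lower at p below 0.05, where 9.35% and 7.59% of all genes were. None was called, and the median was 0.32 (0.44 with the normexp background correction and 0.31 with spike-in centring). The mean level of the list ran from 0.63 to 1.27 in the controls and from 0.89 to 2.06 in the irradiated mice. It was highest in irradiated replicate 5, which also had the highest mean of liver genes (8.16). The part of liver transcripts in this list was not tested. Bbc3, which encodes the BH3-only protein PUMA, was higher by 0.62 (adjusted p = 0.218). Aen, a p53-induced nuclease, lay above all controls in every irradiated mouse, with a difference of 0.60 (adjusted p = 0.271). Bax differed by 0.26 (adjusted p = 0.470), and Cd80, a costimulatory ligand, by −1.20 (adjusted p = 0.194). The 4 damage-induced repair genes tested all had values below 0 (median −0.43, from −0.85 for Rrm2b to −0.10 for Gadd45a), with none at p below 0.05. Their median was −0.07 with spike-in centring and −0.11 with the normexp background correction. The mean level of these genes was −2.19 in irradiated replicate 5 and −0.98 to −0.51 in the other irradiated mice. In the fits that left out 1 mouse, Gadd45a ran from −0.25 to 0.08.

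B cell transcripts were lower, by a small amount and without a call. Of 20 B cell genes tested, all 20 had a value below 0 and 16 were lower at p below 0.05, against 7.59% of all genes, with a median of −0.98. Cd79a, a signalling chain of the B cell receptor, was at 5.35, 5.10, 4.98, 4.41 and 5.23 in the controls, and its lowest, median and highest levels after irradiation were 2.40, 4.48 and 4.82. The groups overlapped, and the difference was −0.87 (SE 0.40, adjusted p = 0.286). The differences ran from −1.22 for Fcrla to −0.56 for Cd37. In bulk blood, fewer B cells and less RNA per B cell cannot be told apart. The paper reports total blood counts in the normal range and no significant shift in white cell composition. It gives no count of B cells.

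Much of the size came from irradiated replicate 5, whose mean over the 20 genes was 0.70, against 2.65 to 3.17 in the other irradiated mice and 2.86 to 3.68 in the controls. Without it the median moved to −0.63, with 17 genes lower at p below 0.05, against 9.15% of all genes. Control 4, at 2.86, was the lowest control and lay on slide B. With slide as a block the median was −0.45 and no gene of the list reached p below 0.05. Leaving out control 1, 2, 3 or 5 left 5 to 8 genes at that level. With the mean of the hepatocyte list as a covariate there were 4.

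MHC class II genes, which present antigen on B cells, monocytes and dendritic cells, also had lower values. All 10 tested had values below 0 and 6 were lower at p below 0.05, against 7.59% of all genes, with a median of −0.78. Ciita, the transactivator that drives the class II genes, was at 1.09, 0.43, 0.25, 0.40 and 0.75 in the controls and had a lowest, median and highest level of −1.78, −0.43 and 0.14 in the irradiated mice. The groups did not overlap, and Ciita had the lowest value of the list, −1.24 (SE 0.35, adjusted p = 0.194). H2-Aa, a class II chain, differed by −0.83 (adjusted p = 0.278). The median was −0.47 without irradiated replicate 5 and −0.57 with slide as a block, where none was at p below 0.05. Leaving out control 1, 3 or 5 or irradiated replicate 1 left 2 genes at that level.

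T cell genes had a median of −0.33, with 23 of 25 below 0, but without irradiated replicate 5 the median was 0.04 and 15 were above 0. Cd3e differed by −0.36 (adjusted p = 0.555) and Cd8a by −0.22 (adjusted p = 0.792). Cd4 went the other way, at 1.64 (SE 0.58, adjusted p = 0.232), with 3.04, 3.12, 3.00, 4.55 and 3.69 in the controls and 3.28 to 6.69 in the irradiated mice. Of 17 NK and cytotoxic genes, 0 of which were at p below 0.05 over all mice (median 0.07, and −0.03 after quantile normalization), 8 were higher at that level without irradiated replicate 5, against 11.9% of all genes, with a median of 0.44. Fasl, a death ligand of cytotoxic cells, then had the highest value, 0.91.

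**Figure D4:**
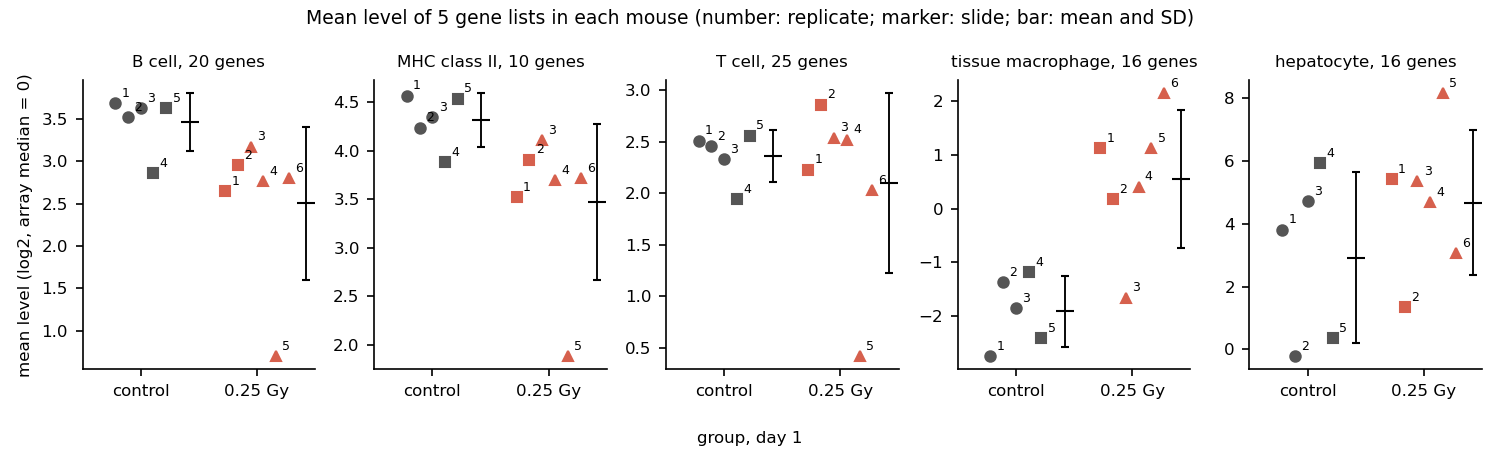
Mean level (log2, array median at 0) of the tested genes of 5 lists in each mouse, with replicate numbers beside the points, circles for slide A, squares for slide B, triangles for slide C, and the mean and SD as bars. Irradiated replicate 5 has the lowest B cell, MHC class II and T cell means (0.70, 1.88 and 0.42) and the highest hepatocyte mean (8.16), and irradiated replicate 3 lies among the controls for the tissue macrophage genes.

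Of 22 platelet genes tested, 2 were higher at p below 0.05, a share close to the 9.35% of all genes. Their median was 0.32, beside 0.12 over all genes, and the mean level ran from 3.83 to 4.68 in the controls and from 3.64 to 5.23 in the irradiated mice. Pf4, a platelet chemokine, differed by 0.28 (adjusted p = 0.512). Among 20 neutrophil genes the median was 0, yet Elane, which encodes the elastase of immature neutrophils, lay above all controls in every irradiated mouse, at 4.14 to 7.42 against 2.38 to 3.93, a difference of 2.30 (SE 0.54, adjusted p = 0.163). Cxcr2, a receptor of mature neutrophils, had the lowest value of that list, −0.995 (adjusted p = 0.250). Red cell genes had a median of −0.16, with Ank1, a membrane skeleton protein, at −1.01 (adjusted p = 0.296). Heme synthesis genes had a median of 0.11, and the rate-limiting erythroid enzyme Alas2 differed by 0.13 (adjusted p = 0.728).

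Interferon-stimulated genes had a median of 0.31. Of 29 tested, 6 were higher and 2 lower at p below 0.05, against 9.35% and 7.59% of all genes. Ifit3, an antiviral effector, differed by 0.94 (adjusted p = 0.209) and Isg15, a ubiquitin-like modifier, by −0.79 (adjusted p = 0.280). Without irradiated replicate 5, 12 were higher at that level, against 11.9% of all genes, and with slide as a block none was. In the Schlafen family, Slfn4 was higher by 1.13 (adjusted p = 0.258) and Slfn8 differed by −1.03 (adjusted p = 0.275). Cell cycle lists were near 0, with medians of −0.03 for 30 mitosis genes, −0.16 for 24 DNA replication genes and 0.02 for 9 genes of the E2f family (−0.21 with the normexp background correction), and with 1 or 0 genes in each direction at p below 0.05. Of 20 tested genes that the study names for its other exposures, which share the day 1 controls, 3 were lower at p below 0.05. Among all genes the share was 7.59%, and none of the 20 was called. Wdr26 had the lowest value of the 20, −0.71.

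No gene of the lists that follow the time of day or stress was called. The median was 0.26 for 10 circadian clock genes and −0.18 for 17 immediate early genes. For 10 glucocorticoid-responsive genes it was 0.05, but −0.34 after quantile normalization, −0.25 with spike-in centring and −0.05 with the normexp background correction. The filters were redone under each of these settings, so the genes or probes tested can differ. Per1 and Cd69 had the lowest values in their lists, at −0.37 (adjusted p = 0.453) and −1.17 (adjusted p = 0.291).

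Genes of resident tissue macrophages, a group put together after the values were seen, had high values in most irradiated mice. Of 16 tested, 13 were higher at p below 0.05 (9.35% of all genes were), a count that is a description because the list was put together for these values. The median was 3.08 (1.60 with the normexp background correction), but none was called over all mice. Marco, a scavenger receptor of macrophages, was at −2.81, −0.91, −2.32, −1.02 and −2.11 in the controls, and at −1.76, 1.60 and 3.88 for the lowest, median and highest irradiated mouse. Irradiated replicate 3 lay within the controls' range and the other 5 mice above it, with a mean difference of 3.33 (SE 0.80, adjusted p = 0.163).

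Gata6, the transcription factor of peritoneal macrophages, was at −5.82, −4.14, −4.24, −4.15 and −5.82 in the controls, well above background in 3 of the 5, and at −4.77, −1.37 and 1.00 for the lowest, median and highest irradiated mouse, a difference of 3.21 (SE 0.80, adjusted p = 0.181). Prg4, the lubricant proteoglycan lubricin, which those cells and joint tissue make, differed by 2.98 (SE 0.71, adjusted p = 0.163). For both genes replicate 3 was again the only irradiated mouse that was not above all controls. Cxcl13, a B cell chemokine of peritoneal macrophages, had the highest value, 4.05, and Spic, a factor of red pulp macrophages, the lowest, −0.34. The complement gene C1qa and the receptor gene Vsig4 differed by 3.14 and 3.11.

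Without irradiated replicate 3, 10 of the 16 were called, among 34 called in all (0.313%), and the median was 3.64. Marco, Gata6 and Prg4 were among them, at 3.98 (adjusted p = 0.0321), 3.84 (adjusted p = 0.0322) and 3.56 (adjusted p = 0.0321). Each of these 3 was called in only this 1 of the 11 fits that left out 1 mouse. The list was chosen for its values in these mice, and replicate 3 was the irradiated mouse with the lowest mean on it. The calls without replicate 3 are therefore a description and not a test. With slide as a block the median was 3.12 and 7 were higher at p below 0.05, where 5.84% of all genes were. The list mean was −2.75 to −1.19 in the controls, −1.66 in irradiated replicate 3 and 0.18 to 2.15 in the other irradiated mice. Between 12 and 19 of the 20 genes were well above background in each mouse. Levels above those of every day 1 control occurred in unirradiated mice of other days. The highest controls of day 3 had Gata6 at −0.64, Marco at 1.47 and Prg4 at 4.65, and those of day 7 had them at −0.32, 0.75 and 4.48.

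Saa3, the serum amyloid A gene that macrophages make, was likewise low in irradiated replicate 3. It was at −1.46, 1.32, −1.47, −0.68 and −0.38 in the controls and at −1.04, 3.89 and 6.77 for the lowest, median and highest irradiated mouse. The difference of 4.10 (SE 1.15, adjusted p = 0.194) became 5.02 (adjusted p = 0.0325) without replicate 3, the only 1 of 11 such fits with a call. Saa1 ran from 2.20 to 3.72 in those fits, without a call. The 6 acute-phase genes tested had a median of 1.35 (0.66 with the normexp background correction). Their mean level was −0.28 to 2.17 in the controls and 1.02 to 3.06 in the irradiated mice. Of 17 monocyte genes 2 were higher at p below 0.05, a share close to the 9.35% of all genes, and the list median was −0.07. The part of tissue cells in these and the other differences was not tested.

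Liver transcripts also varied widely between mice, within both groups. The mean of 16 hepatocyte genes was between −0.22 and 5.93 in the controls and between 1.34 and 8.16 in the irradiated mice, highest in replicate 5, with 34 to 41 of 41 genes well above background in every mouse. All 16 had values above 0 (median 1.78) and none was at p below 0.05. With slide as a block the median was 0.16. The liver albumin gene Alb, which was not among the genes tested, was at 0.88 to 8.68 in the controls and 3.61 to 10.75 in the irradiated mice. The heart muscle gene Myh6 was well above background in 1 of 5 controls and 1 of 6 irradiated mice. Of 4 muscle genes tested 2 were higher at p below 0.05, where 9.35% of all genes were. Myl3, a ventricular light chain, was higher by 1.09 (adjusted p = 0.180).

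Beyond these lists, the genes with the smallest p and no overlap between the groups came from many functions. Slc4a7, a sodium bicarbonate cotransporter, was at 0.10, 2.34, 3.07, 2.00 and 1.20 in the controls and at 3.96, 4.86 and 6.79 for the lowest, median and highest irradiated mouse (3.35, SE 0.61, adjusted p = 0.0817). Dglucy, the mitochondrial enzyme D-glutamate cyclase, was at 0.23, 0.19, 0.30, 0.61 and 0.01 in the controls and at 1.22, 1.27 and 2.33 for the lowest, median and highest irradiated mouse (1.22, SE 0.24, adjusted p = 0.0985). Neither gene overlapped between the groups. Gna14, 2210416O15Rik, Sparcl1 and Qpct were higher by 0.90 to 1.54, with adjusted p of 0.140 to 0.151, but the normexp background correction turned Gna14 to −0.18 and Sparcl1 to −0.15. On the lower side stood Msl2, an E3 ubiquitin ligase of a histone acetyltransferase complex (−1.48), Eml2, a microtubule-associated protein (−1.35), Cmtm7, a membrane protein of B cells among others (−1.59), the zinc finger gene Rlf (−1.25) and A130019P10Rik (−1.13), each with an adjusted p of 0.0817. ENSMUST00000194134, ENSMUST00000099042 and ENSMUST00000099684, named in the files by transcript only, differed by −1.30, −1.92 and −1.97 at the same adjusted p.

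The other days of the same dose used other mice and their own controls. Of the day 3 mice, control 5 shared a slide with irradiated replicates 1 and 2, and no other control shared one with an irradiated mouse. Irradiated replicates 3 to 6 of day 3 were scanned on other dates than the controls. For them, exposure cannot be told apart from slide and scan date. At day 3, Ap2b1 differed by −0.63 (SE 0.63, adjusted p = 0.539), Cdkn1a by 1.40 (SE 0.45, adjusted p = 0.0929), Psrc1 by 0.87 (SE 0.24, adjusted p = 0.0772) and Phlda3 by 0.90 (SE 0.23, adjusted p = 0.0674). Dglucy rose at that day (0.96, SE 0.19, adjusted p = 0.0492). Of the 20 B cell genes 7 were called lower, against 0.626% of all genes, with a median of −1.02, beside −0.98 at day 1 (−0.63 without irradiated replicate 5). The 16 hepatocyte genes all had values above 0 at day 3, with a median of 4.30, and their part in the other values of that day was not tested. Cd72, an inhibitory receptor of B cells, fell by 1.22 (adjusted p = 0.0492), beside −0.96 (adjusted p = 0.210) at day 1. Leaving out irradiated replicate 3, 4, 5 or 6 or control 1, 3, 4 or 5 of day 3 took the count of called genes from 127 to 0, and with spike-in centring 268 genes were called higher and 40 lower in place of 59 and 68. At day 7, 3 genes were called in all (0.0276%), none of them named here, and Cdkn1a was at −0.13, Psrc1 at −0.35 and Cd79a at −0.47 (SE 0.21, adjusted p = 0.205).

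The difference between days was tested directly. Between the effect at day 3 and the effect at day 1, 0 genes differed by limma, with 25 at p below 0.001 and 705 at p below 0.05, so that a call at 1 of these days does not separate them. Ap2b1 differed by 3.03 (SE 0.75, adjusted p = 0.387). The effect at day 7 differed from that at day 1 for 143 genes, 134 with a higher value at day 7 (1.23%) and 9 with a lower one (0.0829%). Ap2b1 differed by 4.65 (SE 0.64, adjusted p = 0.00232), Arpc3 by 2.91 (adjusted p = 0.0329), Raly by 2.34 (adjusted p = 0.0363) and Mdm4 by 1.42 (adjusted p = 0.0314). Among the genes with lower values at day 7 were Psrc1 (−1.90, SE 0.32, adjusted p = 0.0124), Cdkn1a (−2.61, SE 0.62, adjusted p = 0.0428) and Marco (−4.86, SE 1.19, adjusted p = 0.0457). With spike-in centring the median of all genes in this difference was −1.17, with 2 genes called higher and 2062 lower, and Ap2b1, Psrc1, Cdkn1a and Marco were again called in the same direction, whereas Arpc3, Raly and Mdm4 were not. Leaving out 1 mouse moved the count of 143 to between 5 and 269. Day 7 controls 5 and 6 had low Ap2b1, as given above, and the day 7 controls had higher Psrc1 (−3.47 to −2.91) than those of day 1 (−4.33 to −3.79).

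The other exposures of day 1 share the 5 control mice with this comparison, and their values stand beside it for that reason without a test. None of their mice shared a slide with these controls, so exposure and slide cannot be told apart. Cdkn1a differed by 4.20 after 1 Gy of neutrons, 3.11 after 1 Gy of x-rays and 4.15 after 4 Gy of x-rays, where it was called each time, beside 2.48 here. Psrc1 differed by 2.67, 2.42 and 2.38, beside 1.54. Dglucy differed by 1.90, 1.62 and 2.54, beside 1.22. Cd79a differed by −2.28, −0.82 and −4.18, beside −0.87, and Ciita by −3.33, −1.09 and −3.89, beside −1.24. Marco differed by 4.10, 3.57 and 5.15, beside 3.33. Ap2b1 was not called at any of these exposures, at −2.64, −0.76 and −0.07.

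**Figure D5:**
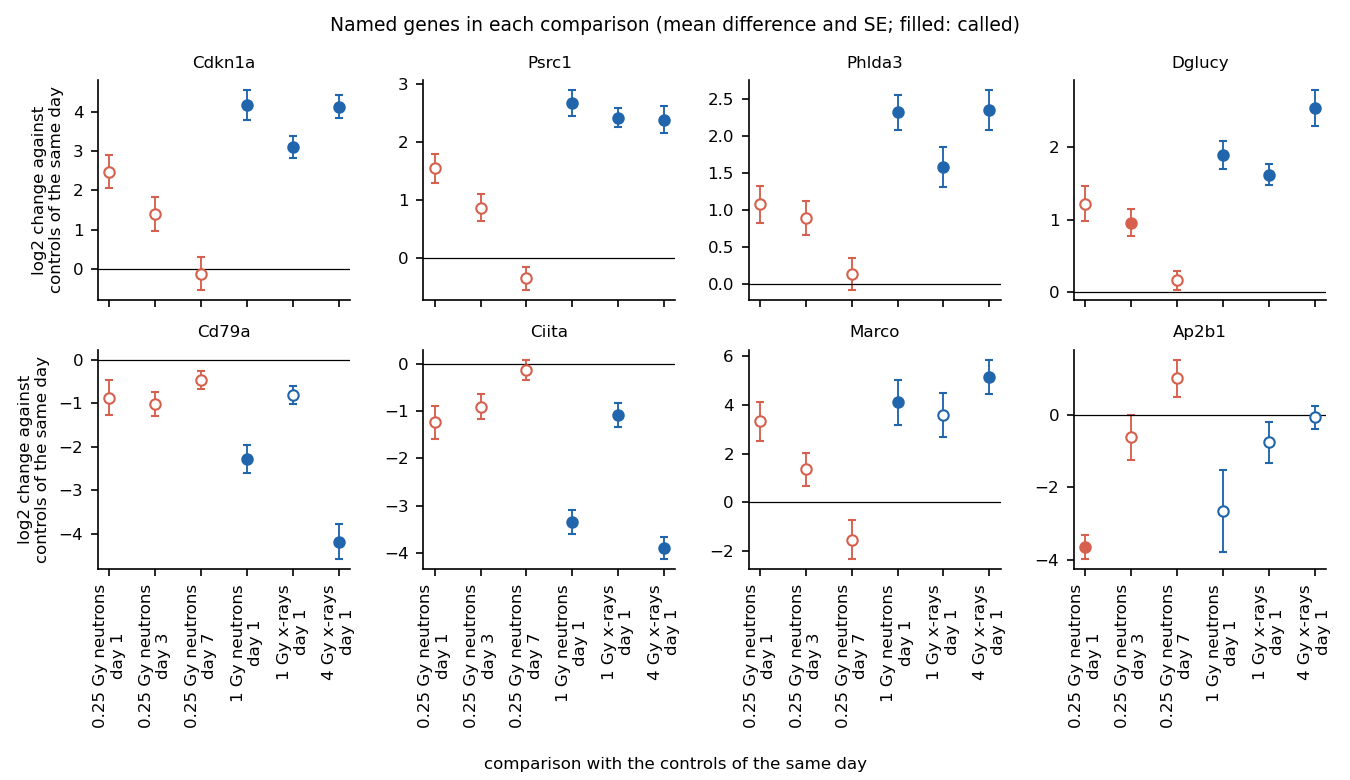
Change against the controls of the same day (log2, mean difference with SE as bars) of 8 named genes after 0.25 Gy of neutrons at days 1, 3 and 7 (red) and after the other exposures at day 1 (blue), with filled points where the gene was called. Cdkn1a goes from 2.48 at day 1 to −0.13 at day 7 after 0.25 Gy and stands at 4.20 after 1 Gy of neutrons, and Ap2b1 is called only at 0.25 Gy and day 1.

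The 2 neutron doses of day 1 were compared without controls. The mice of the 2 doses shared no slide, and 1 Gy replicates 5 and 6 had another scan date. Dose and slide therefore cannot be told apart in this comparison. From 0.25 to 1 Gy, 55 genes were higher (0.506%) and 92 lower (0.847%) by the call, and 643 and 25 with spike-in centring, where the median of all genes was 0.40. Phlda3 was higher at 1 Gy by 1.24 (SE 0.24, adjusted p = 0.0334) and Ciita was lower, with a difference of −2.10 (SE 0.35, adjusted p = 0.0196), and both were called with spike-in centring as well. Cdkn1a differed by 1.71 (SE 0.43, adjusted p = 0.0725) and Cd79a by −1.41 (SE 0.43, adjusted p = 0.0926), which did not pass the FDR limit. Of the list members, 14 of 29 interferon genes were called higher at 1 Gy, and 6 of 20 B cell genes and 3 of 10 MHC class II genes were called lower. Ap2b1 differed by 1.01 between the doses (SE 1.03, adjusted p = 0.528), with the replicates at 1 Gy as given above. Without irradiated replicate 5 of the lower dose 1012 genes were called between the doses, and without replicate 2 there were 10, so that these counts turn on single mice.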

How the data were processed

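Blood RNA was labelled with Cy3 and hybridized to 1-colour Agilent mouse arrays. The deposited files hold the spot intensity that the authors' scanner software, Feature Extraction 12.0.2, gave with its own background correction. Coordinates are those of the file header (mm9), and 28330 probes were named through RefSeq accessions. The log2 intensity was centred on each array's median of detected probes, in the manner of the study's methods. The 1377 control spots were left out. Of 39429 probes, 19808 were flagged on fewer than 25% of the 56 arrays of days 1 and 7, and 12556 differed at least 1.5-fold from their median on 20% of them. The brightest probe stood for each of 10863 genes, 50 of which lack a value on some array. Groups were compared with limma 3.58.1 in R 4.3.3, with Benjamini-Hochberg adjustment, and the procedure was tested on simulated data. Depth has no meaning for arrays, and the number of mice limits the precision. The deposited table of processed values, on a log2 scale of unstated centring (column medians near 8.35), served only to compare its columns with the scanner files.

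Named genes were those called, the 10 with the smallest p in each direction among genes without overlap between the groups, and, in each of 26 lists, the members with the highest and lowest change, beside a fixed set of markers and the genes the study names. The members and lists were chosen with earlier results of these data known. The tissue macrophage list and the likeness to Ap2b1 were chosen after the values were seen, as were Aak1, Ap1s1, Plk3, Zmat3, Bbc3, Aen and Cd72. Alternatives covered filters, normalization, background correction, probe choice, the test, slide, covariates and each mouse left out. For alternatives of filter, normalization or background correction the filters and the probe choice were redone, so the genes or probes tested can differ.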

Additional observations from a re-analysis of the deposited data

Results flagged for a closer look

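Among 88 groups of list means and named genes examined, 15 held a mouse far from the others of its group, where chance gives about 1 in 20. Irradiated replicate 5 accounted for 9 of them. Its mean level was 0.70 for B cell genes, 1.88 for MHC class II genes, 0.42 for T cell genes, −0.99 for NK and cytotoxic genes, −1.91 for mitosis genes, −1.60 for immediate early genes and −2.19 for damage-induced repair genes. Its level was 2.40 for Cd79a and −3.15 for Ap2b1. It was also the mouse with the highest hepatocyte mean, 8.16, and the part of that in these values was not tested. Control 4 stood apart for B cell genes (2.86), damage-induced repair genes (−0.83) and Ap2b1 (−1.65), control 2 for p53 target genes of arrest and feedback (−1.14) and Prg4 (0.47), and control 3 for general blood markers (4.70).

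The effect of 0.25 Gy at day 7 differed from that at day 1 by the call for 21 named genes, out of 143 of all genes tested (1.23% higher and 0.0829% lower). Many of the named genes were chosen for their day 1 values, which enter this difference, so the count is a description. The value was higher at day 7 for Ap2b1 (4.65), Arpc3 (2.91), Dus4l (2.53), Raly (2.34), Psap (1.96), Msl2 (1.82), Cmtm7 (1.76), A130019P10Rik (1.60), Eml2 (1.59), Wdr26 (1.58), Rlf (1.52), Mdm4 (1.42), E2f2 (1.40), ENSMUST00000194134 (1.33) and Kdm4a (1.28). It was lower for Cxcl13 (−6.74), C1qa (−5.40), Fcna (−5.05), Marco (−4.86), Cdkn1a (−2.61) and Psrc1 (−1.90). With spike-in centring Ap2b1 (3.48), Psrc1 (−3.06), Cdkn1a (−3.78), Marco (−6.03), C1qa (−6.57), Cxcl13 (−7.91) and Fcna (−6.22) were again called.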

How the results depend on the processing

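The main count of 1 gene was 2 without the detection filter, with quantile normalization, with the 75th percentile, with dim spots missing, with slide as a block and with the hepatocyte covariate. It was 0 with normexp, within slide B and with the tissue macrophage covariate, the last 2 of which were added after seeing the data, and 24 when all groups of day 1 shared a fit. Leaving out 1 mouse gave 1 to 34. The 67 genes at p below 0.001 became 28 with detection on the 11 arrays, 101 without the variation filter, 23 with normexp, 119 with all groups, 4 with the macrophage covariate and 25 to 125 with 1 mouse left out. For day 3 (127) the count was 200 with quantile normalization, 242 with the 75th percentile, 308 with spike-in centring and 0 to 279 with 1 mouse left out. For day 7 (3) the same gave 11, 75, 5703 and 0 to 311. For day 3 minus day 1 leaving out 1 mouse gave 0 to 1, for day 7 minus day 1 it gave 5 to 269, where spike-in centring gave 2064, and for 1 Gy minus 0.25 Gy of neutrons 10 to 1012, where spike-in centring gave 668. Against the controls of day 1, leaving out 1 mouse gave 1097 to 2252 genes after 1 Gy of neutrons, 411 to 965 after 1 Gy of x-rays and 2831 to 3747 after 4 Gy of x-rays. Zbp1, at −0.85, was at 0.484, 0.394, 0.509, 0.535 and 0.573 with detection on the 11 arrays, without the detection filter, without the variation filter, with spike-in centring and with normexp. Kdelr1 was at 0.004 with spike-in centring, and normexp turned Gna14 (−0.178), Sparcl1 (−0.152) and Cdk1 (−0.148). The macrophage list was chosen for its difference between the groups, so that its use as a covariate takes up part of that difference by construction. It turned Gata6 (−0.331), Saa3 (−0.097), Selp (−0.333), Vsig4 (−0.25), Cd5l (−0.32), Timd4 (−0.464), C1qa (−0.502), C1qc (−0.123) and Saa1 (−0.533). Without the variation filter a probe keeps its value (Ap2b1 stayed at −3.655), so Zbp1 was read there by another probe. The same holds for Zbp1 and Kdelr1 with spike-in centring, which shifts all genes of the comparison alike. For the other reversals the cause was not tested. Of 70 named genes at p below 0.05, 56 kept their sign under every one of the 27 alternatives. Many of these genes were chosen for their values in the same mice, so that the count is a description.

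The shared replicate numbers did not pair the mice, since same-numbered mice deviated together with correlations of −0.024, 0.643, 0.191, −0.266 and −0.554. With the replicate number as a block, 0 genes were called and 21 were at p below 0.001 at day 1. The block gave 0 at day 3, at day 7 and for day 7 minus day 1.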
